A study of Mus musculus with 53 samples.

Results

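Purkinje cells of the mouse cerebellum at postnatal day 7 (P7) were selected here from 10 single-cell libraries as barcodes with at least 1000 UMIs (unique molecular identifiers, each standing for 1 captured transcript) and at least 500 genes, with UMIs of 3 or more of the 5 genes Pcp2, Calb1, Car8, Ppp1r17 and Skor2. No upper depth limit was set and no doublets were removed. The rule found 680 members among 79855 barcodes of the same depth limits, which is 0.852%. Each library came from 1 cerebellum of a separate animal. The study deleted Insm1, or Tead1 together with Tead2, with Atoh1Cre, a recombinase driven by a gene of the granule cell lineage, and compared these mutants with controls that carry the floxed alleles and no Cre. Per allele there were 2 controls (Insm1fl/fl, or Tead1fl/fl with Tead2fl/fl) and 3 mutants (Atoh1Cre with the same floxed alleles). In each of the 4 genotype groups library number 1 was dissected with all lobules, and the other libraries without lobules IX and X. Bulk RNA-seq of whole cerebella at postnatal day 2 (P2), from other animals of the same genotypes, gave a further readout of the same genes, with 4 controls and 4 mutants for Insm1 and 3 controls and 4 mutants for Tead1/2.

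Purkinje cells are the large GABAergic neurons that carry the only output of the cerebellar cortex. They receive parallel fibres from granule cells and climbing fibres from the inferior olive, and they signal through metabotropic glutamate receptors and release calcium from internal stores through the inositol trisphosphate receptor. During early postnatal life they also secrete Sonic hedgehog, the mitogen on which granule cell progenitors depend, so both cell types are linked while the granule layer grows. They do not arise from the Atoh1 lineage.

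The nuclear receptor RORA, which Purkinje cells need to mature, recognises the letters AGGTCA, and the promoters of 2 classical Purkinje genes show where such a match can lie. Both windows come from RefSeq on GRCm38.p6 and run from 250 bases before to 50 bases after an annotated start. Capitals mark AGGTCA or its complement TGACCT, on the gene's strand. The table lists 4 starts for Pcp2, of which the third has no match and the others 1 each, and the first is shown. The Pcp2 window is chr8:3625498-3625797 on the minus strand, with the match beginning 12 bases before the start, and the Pcp4 window is chr16:96467356-96467655 on the plus strand, with the match 164 bases before it.
Pcp2: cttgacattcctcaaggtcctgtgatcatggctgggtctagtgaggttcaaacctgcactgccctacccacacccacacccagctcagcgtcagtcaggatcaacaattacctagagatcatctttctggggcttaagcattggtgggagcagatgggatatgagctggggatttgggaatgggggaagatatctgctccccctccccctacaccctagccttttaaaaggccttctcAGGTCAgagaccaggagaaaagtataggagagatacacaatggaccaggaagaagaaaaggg
Pcp4: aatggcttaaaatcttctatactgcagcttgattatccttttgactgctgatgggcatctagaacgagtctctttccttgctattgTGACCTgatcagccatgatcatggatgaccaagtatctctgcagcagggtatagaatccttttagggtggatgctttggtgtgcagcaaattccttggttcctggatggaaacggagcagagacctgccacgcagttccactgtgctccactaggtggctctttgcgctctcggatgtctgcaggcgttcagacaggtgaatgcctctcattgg
Pcp2 encodes a modulator of G protein signalling and served in the rule, whereas Pcp4, which encodes a calmodulin-binding peptide, did not. Of the 40 genes with the highest ratio of members to other barcodes, 27 had a window in the RefSeq table, and 5 of them (18.5%) held the motif on either strand. Of all 27025 genes with a RefSeq window, 4900 held it (18.1%), so the share among the leading genes was close to that of all promoters of this length.

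Members were deep barcodes. Their median was 62667 UMIs, with a range from 1090 to 582128, against 7785 UMIs in barcodes with none of the 5 markers. In each library the median of members was 3.38 to 10.6 times that of all barcodes kept. The depth rose with the number of markers seen, from 21526.5 UMIs at 1 marker and 43424 at 2, just outside the rule, to 45844.5 at 3, 68127 at 4 and 79166 at 5. Those tiers held 5906, 535, 268, 307 and 105 barcodes. The summed members of a library held from 628786 UMIs (Tead1/2 control 2) to 19531901 UMIs (Insm1 control 2), and no barcode was shared between libraries.

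The markers of the rule describe the choice, and their values in members are given without a test. A UMI of Car8, a carbonic anhydrase relative that binds the inositol trisphosphate receptor, was present in 680 of 680 members, and one of Calb1, the calcium buffer calbindin, in 679. Skor2, a transcriptional co-repressor of early Purkinje cells, was seen in 555, Pcp2 in 487 and Ppp1r17, a phosphatase inhibitor, in 156. The most common combination was Pcp2, Calb1, Car8 and Skor2 (269 members, 39.6%), then Calb1, Car8 and Skor2 (153, 22.5%), all 5 markers (105, 15.4%) and Pcp2, Calb1 and Car8 (101, 14.9%). Free RNA, read from barcodes of 10 to 100 UMIs, held the markers at low levels, in counts per 1000000 UMIs (CPM): 52.0 for Car8 and 19.3 for Calb1, beside 1178 and 392 in the pooled members. For Skor2 the free level was 2.87 and the member level 58.3.

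Purkinje genes that the rule did not use were checked against the label. The summed level of 20 other Purkinje genes was 3.41 times higher in members than in the remaining barcodes of the same library (median of 10 libraries, range 2.44 to 6.53). The strongest single genes were Slc1a6, the Purkinje glutamate transporter EAAT4, at a ratio of 192, Arhgef33, a guanine nucleotide exchange factor, at 117, and Pcp4 at 66.3. Further down lay Itpr1, the inositol trisphosphate receptor, at 21.8. Gad2 and Slc32a1, which make and load GABA, stood at 4.13 and 4.66. Not every textbook gene separated the members at this age, since Rora was at 1.67, Gad1 at 1.70, Lhx1 at 1.01 and Lhx5 at 0.57. Outside the lists, the genes with high ratios included the serotonin receptor Htr1b (173), the glucokinase regulator Gckr (179), the potassium channel partner Kcnip1 (69.0) and the actin-binding Klhl1 (68.2). Since the same barcodes were chosen by correlated markers, these ratios are a description.

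Members were not equally pure. The lists of other cell types stood below the remaining barcodes but far above 0: the median ratio over libraries was 0.811 for granule neuron genes, 0.716 for granule progenitor genes, 0.773 for GABAergic interneuron genes, 0.712 for Bergmann glia and astrocyte genes and 0.838 for oligodendrocyte genes. The unipolar brush cell list stood higher, at 2.84, and it holds genes that Purkinje cells express. Split into 3 sets by UMIs (227, 226 and 227 members), the median level of the 20 Purkinje genes fell from 29593 CPM in the shallowest set to 21409 in the middle set and 11737 in the deepest set. Granule neuron genes went the other way, from 2943 to 4854 and 6733 CPM, and progenitor genes from 409 to 1698 and 2420. This split pools libraries, and most members came from Insm1 libraries. The Purkinje level fell with depth in the Insm1 controls (28851, 16454 and 9888 CPM in the same sets) and mutants (35429, 23757 and 12878), but not in the Tead1/2 controls (4559, 11901 and 12627, from 14, 9 and 4 members), and in the Tead1/2 mutants only the deepest set was lower (22695, 23832 and 16202).

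**Figure D1:**
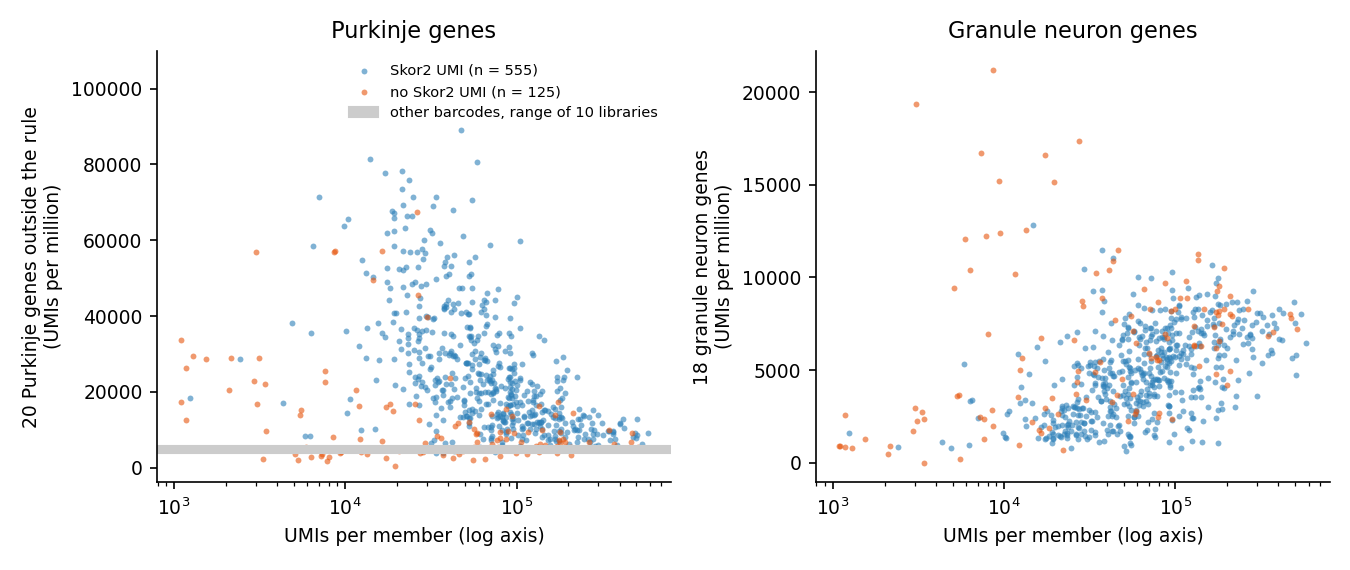
Summed level of the 20 Purkinje genes outside the rule (left) and of 18 granule neuron genes (right), in CPM on linear axes, against the UMIs of each of the 680 members on a log axis. Colour marks members with and without a Skor2 UMI, and the grey band is the range of the remaining barcodes over 10 libraries. Over all members Purkinje content falls and granule neuron content rises with depth, though not Purkinje content in the few members of the Tead1/2 controls, from medians of 29593 and 2943 CPM in the shallowest 227 members to 11737 and 6733 in the deepest 227.

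Members with and without Skor2 differed in Purkinje content. The 555 members with a Skor2 UMI held a median of 21230 CPM of the 20 Purkinje genes, 3.94 times the level of the remaining barcodes, and 11 of them (1.98%) lay at or below that level. The 125 members without one held 7198 CPM, a ratio of 1.30, and 40 of them (32.0%) lay at or below it. Over all members 51 of 680 (7.5%) did. The Tead1/2 controls stood apart: 8 of their 27 members (29.6%) were at or below the level of other barcodes and their median was 10267 CPM, against 20127 to 22577 in the Tead1/2 mutants, 14042 and 14356 in the Insm1 controls and 16743 to 23268 in the Insm1 mutants. At least 2 times the level of other barcodes was reached by 500 of 680 members (73.5%). In the Tead1/2 controls 15 of 27 (55.6%) reached it, and 43 of 125 (34.4%) among members without Skor2. Most members thus held more of the Purkinje genes outside the rule than other barcodes did, and this was least so in these 2 sets.

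The share of members varied widely between libraries, and each Tead1/2 library lay below 4 of the 5 Insm1 libraries. It was 0.261% and 2.06% in Insm1 controls 1 and 2, and 0.928%, 2.05% and 3.14% in Insm1 mutants 1, 2 and 3. In the Tead1/2 controls it was 0.155% and 0.187%, and in the mutants 0.20%, 0.298% and 0.407%. The Insm1 groups overlapped, because control 2 lay above mutants 1 and 2, while the Tead1/2 groups did not. That separation was narrow: with barcodes under 15% mitochondrial UMIs Tead1/2 mutant 1 lay at 0.1866% and control 2 at 0.1872%, and with a minimum of 2000 UMIs at 0.18914% and 0.18921%. Within each of the 4 groups the library with all lobules had the lowest share.

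The mean share was 0.876 percentage points higher in the Insm1 mutants than in their controls, at 2.04% against 1.16%. The two-sided exact permutation p was 0.6 (n = 3 mutant and 2 control libraries, where 0.2 is the smallest p possible). Without Insm1 control 1 the difference was -0.023 points. For Tead1/2 the mutants were higher by 0.131 points, at 0.302% against 0.171% (exact permutation p = 0.2, the smallest this design allows). That difference stayed between 0.0779 and 0.182 points when any single library was left out. Among libraries without lobules IX and X alone the differences were 0.532 and 0.165 points. Since a deep barcode meets the rule more easily, each barcode was also thinned to 1000 UMIs in a single random draw. This gave differences of 0.0737 points (Insm1) and 0.0492 points (Tead1/2; exact permutation p = 0.4 for each). Few barcodes were left: 3 and 10 in the Insm1 controls and 4, 10 and 12 in the mutants. For Tead1/2 there were 2 and 0 in the controls and 3, 2 and 9 in the mutants. The Tead1/2 groups overlapped there, with 0.0207% in control 1 and 0.0206% in mutant 2, and the exact permutation p was also 0.4 under the mitochondrial limit and the minimum of 2000 UMIs.

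**Figure D2:**
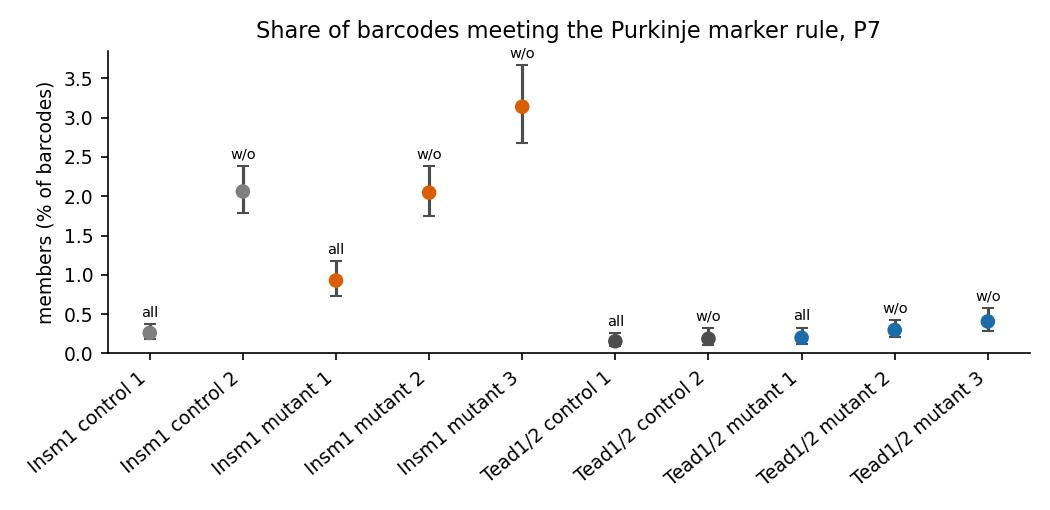
Share of barcodes that met the marker rule in each of the 10 libraries (percent, linear axis from 0), with 95% Wilson intervals that cover counting error only; "all" marks libraries with all lobules and "w/o" those without lobules IX and X. Insm1 control 1 (0.261%) lies far below Insm1 control 2 (2.06%), and the Tead1/2 libraries all lie under 0.5%.

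The comparison of gene expression asked how Purkinje transcripts differed where the deletion was made in the neighbouring granule lineage. UMIs of the members were summed per library, and 13109 genes were fitted with edgeR's quasi-likelihood test over the 10 sums. A gene was called at a Benjamini-Hochberg adjusted p (FDR) under 0.05. Levels below are CPM of these sums on a normalised library size, and changes are log2 values of mutants against controls. The test called 1014 genes for Insm1 (7.74%; 702 higher, 5.36%, and 312 lower, 2.38%) and 754 for Tead1/2 (5.75%; 470 higher, 3.59%, and 284 lower, 2.17%). The counts rested on single libraries: without Insm1 control 2 the test called 289 genes for Insm1 (233 higher, 56 lower), and without Tead1/2 control 2 it called 205 for Tead1/2 (148 higher, 57 lower). They were 517, 541 and 523 for Insm1 without Insm1 control 1, mutant 2 or mutant 3, and 456 for Tead1/2 without Tead1/2 control 1.

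Genes that mark the members made up few of these calls in the fit of all members, though not in each choice of members for Tead1/2. Of the 856 tested genes whose mean level was at least 2 times higher in members than in the remaining barcodes, 11 were called for Insm1 (1.29%), all higher, and 2 for Tead1/2 (0.234%), both higher. Among the other 12253 genes 1003 (8.19%) and 752 (6.14%) were called. The 856 genes were chosen on the mean of the same 10 libraries, mutants included. A large rise in the remaining barcodes of mutants therefore moves a gene to the others, and these shares depend in part on that choice. In the summed members that entered the fit, the 20 further Purkinje genes summed to 14825 and 13213 CPM in both Insm1 controls against 14043, 19567 and 17841 in the mutants, and to 17999 and 15899 against 28697, 16926 and 20856 for Tead1/2. Both pairs of groups overlapped in these sums. In shallower members the ratio of these genes to the remaining barcodes separated the Tead1/2 groups. Without the deepest 25% it was 2.01 and 3.93 in controls, against 6.96, 5.87 and 5.21 in mutants. Below the median UMIs it was 2.44 and 3.03, and at least 4.07 in mutants. The Insm1 ratios overlapped without the deepest 25% and separated below the median (4.85 and 5.15, against 5.35 to 6.30). The part of these levels and ratios in the changes and calls that follow was not tested. The 856 genes had a median change of 0.33 for Insm1 and 0.17 for Tead1/2, beside 0.02 and 0.04 over all genes. For Tead1/2 this median was larger in shallower members, at 0.75 without the deepest 25%, 0.90 in members below the median UMIs of their library and 0.69 with members thinned to 5000 UMIs, and it was 0.37 with a sex term. For Insm1 these values were 0.47, 0.47, 0.37 and 0.22. Some of this offset moves with the scaling: with libraries scaled on genes at least 4 times higher in members the median of all genes shifted to -0.26 and -0.16, and 0 and 4 of the 856 genes were called (93 and 91 had an unadjusted p under 0.05 in the fit as reported, and DESeq2 called 17 and 11). The counts also moved with the choice of members: with UMIs of 4 or more markers they were 0 and 1, among members with a Skor2 UMI 2 and 0, and without the deepest 25% of members 19 and 49 of 742 (416 and 270 of all 11064 genes tested there). With each member thinned to 5000 UMIs they were 15 and 30 of 297 (264 and 192 of all 3613). In both of these settings the share of calls for Tead1/2 was higher among the genes that mark members than among all genes, the reverse of the fit of all members. For Insm1 the count was 2 without Insm1 control 1, Insm1 control 2 (1 of them lower) or Insm1 mutant 3, 1 without Insm1 mutant 2, 34 without Insm1 mutant 1, and 19 (1 of them lower) and 24 without Tead1/2 mutants 1 and 2. For Tead1/2 it was 15 without Tead1/2 mutant 2, 1 without Tead1/2 control 2 or Insm1 mutant 2, and 2 to 5 without any other library, with 1 or 2 of them lower without Tead1/2 control 1 or any Tead1/2 mutant.

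**Figure D3:**
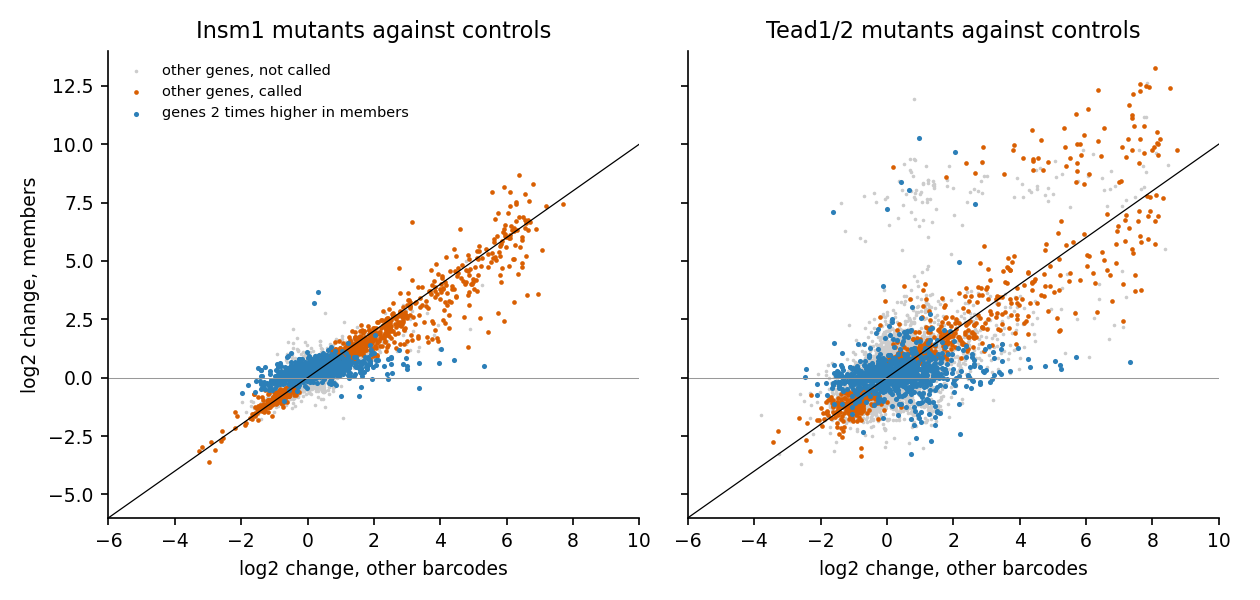
Log2 change of each tested gene in the summed members (vertical axis) against the change in the remaining barcodes of the same libraries (horizontal axis), with the line of equal change. Blue points are the genes at least 2 times higher in members (medians 0.33 and 0.17 on the vertical axis), orange points are other called genes, and the upper band in the Tead1/2 panel is made of genes at or near 0 counts in the controls, whose fitted size is no measure of fold.

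Of the 19 tested genes among the 20 further Purkinje genes, 1 rose and 1 fell for each allele, and the medians were 0.28 and 0.14. List counts here and below stand beside 7.74% of all genes called for Insm1 and 5.75% for Tead1/2. Calb1, a marker of the rule and so a description only, measured 285 and 300 CPM in both Insm1 controls, against 241, 439 and 450 in the mutants. In the Tead1/2 controls it stood at 632 and 753, and in the mutants at 899, 526 and 789. The mutant range enclosed the controls for both alleles.

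The calcium release channel of the Purkinje cell gave wide intervals. Itpr1 measured 3293 and 2795 CPM in both Insm1 controls, against 2751, 4613 and 4179 in the mutants, and 3398 and 4145 in the Tead1/2 controls against 8733, 3888 and 5712 in the mutants. Both pairs of groups overlapped (0.34, 95% interval -0.34 to 1.02, FDR 0.62; and 0.70, 0.01 to 1.38, FDR 0.25). For Tead1/2, Itpr1 was called higher in 2 of 23 alternative settings, and its change ranged from 0.31 to 1.95 over them. Tead1/2 mutant 1 was the highest of the Tead1/2 libraries for Itpr1, and without it the median change of the genes that mark members was -0.0041 for Tead1/2.

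Of the 31 tested genes of the calcium and glutamate receptor pathway list 3 rose and 0 fell for both alleles, beside 7.74% and 5.75% of all genes called. They were Atp2b3, a plasma membrane calcium pump, Ryr1, the skeletal muscle type ryanodine receptor, and Casq2, a calsequestrin of the sarcoplasmic reticulum. Ryr1 rose from 73.3 and 39.1 CPM to 184, 252 and 189 for Insm1 (log2 change 1.96, SE 0.35, FDR 0.0048) and from 89.0 and 64.5 to 497, 506 and 243 for Tead1/2 (2.43, SE 0.39, FDR 0.0051). All 3 genes also belong to muscle. On the mean of the 10 libraries their ratios to the remaining barcodes were 0.94, 1.16 and 0.94, below the limit of 2 used for genes that mark members. Their changes in the remaining barcodes were 4.09, 5.44 and 5.21 for Insm1 and 3.48, 7.12 and 6.79 for Tead1/2. The mean ratios include these mutants, so they do not give the ratios in controls. The list median was 0.35 and 0.25.

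Shh, the mitogen for granule progenitors, was sparse. It measured 4.00 and 5.14 CPM in both Insm1 controls, against 4.76, 7.44 and 8.69 in the mutants, and 7.54 and 21.5 in the Tead1/2 controls against 17.1, 7.03 and 13.0 in the mutants. Neither pair of groups separated, and the intervals were -0.27 to 1.37 for Insm1 and -1.62 to 0.83 for Tead1/2. The growth factor Igf1 changed by 0.29 and -0.52 and Kitl, the ligand of the receptor Kit on interneurons, by 0.37 and -0.04, none of them called. Of the 27 tested genes for secreted signals 5 rose and 1 fell for Insm1, beside 7.74% of all genes called, and 0 were called for Tead1/2. The risers were Slit3, an axon guidance cue, Dlk1, a Notch pathway ligand of muscle and other tissues, Ntf3, a neurotrophin, Jag1, a Notch ligand, and Vegfa, and the gene that fell was Nrg1, a ligand of ErbB receptors (log2 change -1.49, FDR 0.00044). In the remaining barcodes these 6 genes changed by 4.26, 4.79, 1.77, 1.80, 0.56 and -2.17. On the mean of the 10 libraries, mutants included, none had a ratio above 1.02 in members, and Nrg1 is also a gene of other cerebellar neurons. The list medians were 0.48 and 0.09.

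**Figure D4:**
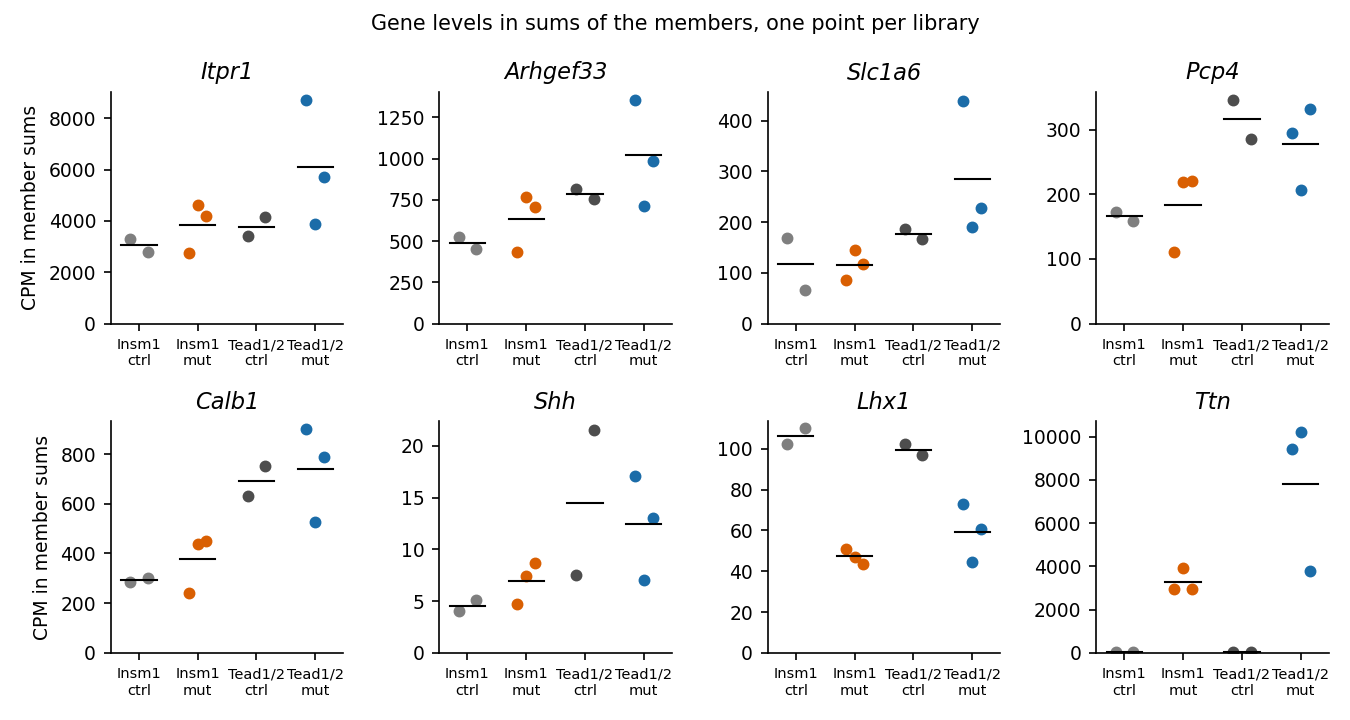
Level of 8 genes in the summed members of each library (CPM, linear axes from 0), with 1 point per library in order of its number and a bar at the group mean. Controls and mutants of Insm1 overlap for Itpr1, Arhgef33, Slc1a6, Pcp4, Calb1 and Shh and separate for Lhx1 and Ttn, while those of Tead1/2 separate for Slc1a6, Lhx1 and Ttn.

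Transcription factors gave calls in genes shared with other cells. Lhx1, a LIM homeodomain factor of early Purkinje cells, measured 103 and 110 CPM in both Insm1 controls, against 51.1, 47.1 and 43.7 in the mutants. The groups did not overlap, and it fell by 1.18 on the log2 scale (SE 0.15, FDR 0.00056). For Tead1/2 it stood at 103 and 96.8 CPM against 72.8, 44.5 and 60.6, and fell by 0.81 (SE 0.20, FDR 0.035), a call that was lost in 15 of 23 alternative settings. Lhx1 was as high in the remaining barcodes (ratio 1.01), where its change was -1.39 and -1.69.

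Foxp2, which Purkinje cells keep, differed between both sets of barcodes. It stood at 598 and 666 CPM in the members of the Insm1 controls and at 449, 662 and 624 in those of the mutants, and at 831 and 733 against 865, 622 and 776 for Tead1/2. The groups overlapped, with changes of -0.13 (95% interval -0.54 to 0.28) and -0.06 (-0.48 to 0.36). In the remaining barcodes the change was -1.09 and -1.33, which lies outside both intervals. The maturation factor Rora changed by 0.35 and 0.38 and the early B-cell factor Ebf2 by 0.25 and 0.66, not called. Of the 27 tested transcription factors 2 rose and 3 fell for Insm1, with Mef2c and Mef2d higher and Lhx1 and En2 among those lower. For Tead1/2, 4 rose and 3 fell, with Mef2c, Mef2d, Esrrg and Lhx5 higher and Lhx1 and Ebf3 among those lower. The medians were -0.10 and 0.03, and 7.74% and 5.75% of all genes were called. The Lhx5 call was lost in 16 of 20 alternative settings. Mef2c, which is also a muscle factor, rose by 1.87 (FDR 0.001) and 2.09 (FDR 0.0019), beside 2.65 and 3.34 in the remaining barcodes.

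Synaptic, GABA, ion channel and cytoskeleton genes are read beside the share of all genes called, 7.74% for Insm1 and 5.75% for Tead1/2. Of 26 tested genes of parallel and climbing fibre synapses 1 rose for Insm1 (Lrrtm3, a synaptic adhesion protein, 1.17, FDR 0.011) and 1 fell for Tead1/2 (C1ql1, the climbing fibre ligand, -1.87, FDR 0.0056), with medians of 0.12 and 0.08. C1ql1 stood at 30.2 and 21.5 CPM in the Tead1/2 controls and at 4.28, 8.60 and 6.14 in the mutants. Of 18 tested GABA genes 2 fell for Insm1, with Kctd8, a GABA-B receptor subunit, among them, and for Tead1/2 Kctd8 fell and the chloride importer Slc12a2 rose (medians 0.22 and 0.17). Of 28 tested ion channel genes Kcnj12 rose and 1 gene fell for Insm1, and 0 were called for Tead1/2 (medians 0.21 and 0.18). Gap43, Stmn2, Tubb3 and Dpysl3, genes of growing axons, fell for Insm1 among 27 tested cytoskeleton genes, and Gap43 and Stmn2 fell for Tead1/2 (medians -0.13 and -0.06). These genes had ratios of 0.74 to 1.17 in members. On that mean of the 10 libraries, mutants included, none of them sets the members apart from the other barcodes.

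The reelin pathway guides Purkinje cells into a single layer. Its intracellular adaptor Dab1 was 27.1 times higher in members than in the remaining barcodes and changed by 0.37 (-0.20 to 0.95) and 0.10 (-0.47 to 0.67). Of 16 tested genes the receptor Lrp8 rose and Dcx, a microtubule protein of migrating neurons, fell for Insm1, which is 2 of 16 beside 7.74% of all genes, while 0 were called for Tead1/2 (medians 0.03 and 0.10). Among 32 tested genes that differ between Purkinje stripes Cdh7 rose and Gap43 fell for both alleles (medians 0.12 and 0.15). Aldoc, the stripe antigen zebrin II, stood at 214 CPM in Tead1/2 mutant 1 and between 5.37 and 28.7 CPM in the other 9 libraries. That library also held 502 CPM of Cntn4, a contactin, beside 44.6 to 248 CPM elsewhere, and it was dissected with all lobules.

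Receptors through which Purkinje cells could read granule cell signals gave 4 rises and 1 fall among 27 genes for Insm1, and 2 rises and 2 falls for Tead1/2 (medians 0.02 and 0.17). Of all genes 7.74% and 5.75% were called. The hedgehog co-receptor Cdon rose for both (1.28, FDR 0.0012, and 1.4, FDR 0.0087), and the neuregulin receptor Erbb4 fell for both (-0.81, FDR 0.0086, and -0.62, FDR 0.045). Ntrk3, Notch1 and Unc5b rose for Insm1, and for Tead1/2 Plxna2 rose and Boc fell. In the remaining barcodes Cdon changed by 2.66 and 3.16 and Erbb4 by -0.80 and -1.01. Of 11 tested genes of activity and stress Cdkn1a, Egr1 and Fos rose for Insm1, and Cdkn1a and the endoplasmic reticulum chaperone Hspa5 rose for Tead1/2 (medians 0.14 and 0.67). Hspa5 stood at 115 and 101 CPM in the Tead1/2 controls and at 176, 178 and 162 in the mutants (0.67, SE 0.12, FDR 0.0088), beside a change of 0.06 in the remaining barcodes. The median share of mitochondrial UMIs in members moved with these groups, at 1.02% and 1.53% in the Tead1/2 controls and 2.79%, 1.79% and 1.80% in the mutants, and its part in these rises was not tested.

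The 8 genes named by rule among those that mark the members were all higher in Insm1 mutants. These calls depended on the members and libraries used: each was lost in 5 (Gm45837) to 15 (Pla2g4e) of the alternative settings, all 8 with UMIs of 4 or more markers, without Insm1 control 2 or with scaling on the genes of members, while none changed sign. Gm45837 rose from 58.6 and 36 to 76.7, 122 and 120 CPM (log2 change 1.24, SE 0.24, FDR 0.0093). Grip2, a scaffold of AMPA receptors, rose from 15.1 and 13.2 to 21.8, 30.5 and 31.5 CPM (1.02, SE 0.22, FDR 0.014). Lncpint, a long non-coding RNA, rose from 22.2 and 25.2 to 38.5, 43.2 and 37.4 CPM (0.72, SE 0.15, FDR 0.013). Groups that do not overlap were a condition for naming these genes. The others were Pla2g4e (0.83, FDR 0.049), Gm40841 (0.80, FDR 0.023), Nexn, an actin-binding protein of muscle and other tissues (0.76, FDR 0.036), Fam222a (0.67, FDR 0.045) and Ptpn13, a phosphatase (0.63, FDR 0.027). For most of them the remaining barcodes moved at least as far: 4.02 for Gm45837, 1.92 for Grip2, 2.52 for Pla2g4e, 2.44 for Gm40841, 2.14 for Nexn and 0.77 for Lncpint.

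For Tead1/2 the rule named 1 gene that marks the members. Il1rapl2, an interleukin receptor relative at synapses, stood at 70.9 and 108 CPM in the controls and at 203, 185 and 238 in the mutants. It rose by 1.22 (SE 0.27, FDR 0.022), though the call was lost in 9 of 23 alternative settings. For Insm1 the same gene stood at 254 and 145 CPM in the controls and 140, 151 and 156 in the mutants (-0.40, FDR 0.33). Its change in the remaining barcodes was 3.44 for Tead1/2 and 1.61 for Insm1, while its level in members was 19.9 times that of those barcodes. The purity of the Tead1/2 controls moves with this result, as given above, and its part in the result was not tested.

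Insm1 and Tead2 were also lower in the members of the mutants that carry their deletion, although Purkinje cells do not derive from the Cre lineage, whereas Tead1 was higher. Insm1 measured 36.4 and 43.2 CPM in both Insm1 controls, against 9.10, 3.19 and 6.86 in the mutants (-2.69, SE 0.35, FDR 0.00064), beside a change of -2.61 in the remaining barcodes. Tead2 stood at 19.6 and 12.3 CPM in the Tead1/2 controls and at 4.28, 3.13 and 4.61 in the mutants (-2.08, SE 0.36, FDR 0.0064), beside -1.95. Tead1 was higher in the Tead1/2 mutants (0.99, SE 0.20, FDR 0.013, beside 0.94), and which of its exons were deleted is not given in the sources used here. Insm1 and Tead2 were less abundant in members than in the remaining barcodes, at ratios of 0.63 and 0.73. The granule lineage genes described above were in the members too, and their part in these changes was not tested.

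Skeletal muscle genes gave the largest rises. Of 36 tested genes 36 rose for Insm1 and 34 for Tead1/2, with median fitted changes of 5.67 and 7.79, or 5.61 and 4.94 when genes absent from all controls were set to a lower bound. That bound takes 3 counts over the members of an allele's controls, and 17 of the 36 genes had 0 counts in the Tead1/2 controls. Ttn, the giant sarcomere protein titin, measured 27.1 and 32.7 CPM in both Insm1 controls, against 2962, 3904 and 2928 in the mutants. In the Tead1/2 controls it stood at 36.2 and 39.9, and in the mutants at 9409, 10204 and 3764. The change was 6.74 and 7.68, beside 6.65 and 8.33 in the remaining barcodes. For Tead1/2, Trdn, a protein of the muscle triad, was at least 80.2-fold higher, Actc1 48.5-fold, Myom3 46.0-fold, Acta1 44.5-fold and the muscle regulator Myog 19.0-fold, each as a lower bound. In Insm1 members the 4 largest rises outside the genes that mark members were Myom2, Trim55, Myh8 and Actc1, all of muscle.

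Muscle transcripts were uneven among single members. Their summed level never passed 955 CPM in a member of an Insm1 control or 893 in a member of a Tead1/2 control. It was above that level in 178 of 373 members of Insm1 mutants (47.7%; 33 of 67, 85 of 156 and 60 of 150), which held 97.1% of the muscle UMIs, and in 42 of 75 members of Tead1/2 mutants (56%; 7 of 15, 23 of 29 and 12 of 31), which held 99.0%. Pooled over libraries, those members were deeper and held less of the Purkinje genes: for Insm1 91024 against 43265 UMIs and 15072 against 28119 CPM, and for Tead1/2 74912 against 28373 UMIs and 18158 against 26638 CPM. The Purkinje level was lower in 5 of the 6 mutant libraries, and in Tead1/2 mutant 3 it was 21595 CPM above the limit against 20253 at or below it. Among the Insm1 mutants the median muscle level was 623 CPM in the shallowest set of members, 799 in the middle set and 3617 in the deepest, and among the Tead1/2 mutants 775, 895 and 17316. The Tead1/2 libraries were not alike in this, since the median muscle level of a member was 12757 CPM in mutant 2 and 772 and 787 in mutants 1 and 3, and most of the deepest Tead1/2 members came from mutant 2. Pooled over members it was 5640 to 6901 CPM in the Insm1 mutants, beside 7374 to 8659 in the remaining barcodes, and 6959 to 18132 CPM in the Tead1/2 mutants, beside 17288 to 25804. In the controls of both alleles it was 203 to 381. The ratio of members to remaining barcodes was 0.73 to 0.80 in the Insm1 mutants and 0.40 to 0.74 in the Tead1/2 mutants. Barcodes of 10 to 100 UMIs, read here as free RNA, held 8336 to 24401 CPM in the mutant libraries and 1299 to 3060 in the control libraries. The remaining barcodes of the control libraries held 183 to 190 CPM, and the source of the higher level in the shallow barcodes was not tested. The parts of free RNA and of barcodes with more than 1 cell in these values were not tested.

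**Figure D5:**
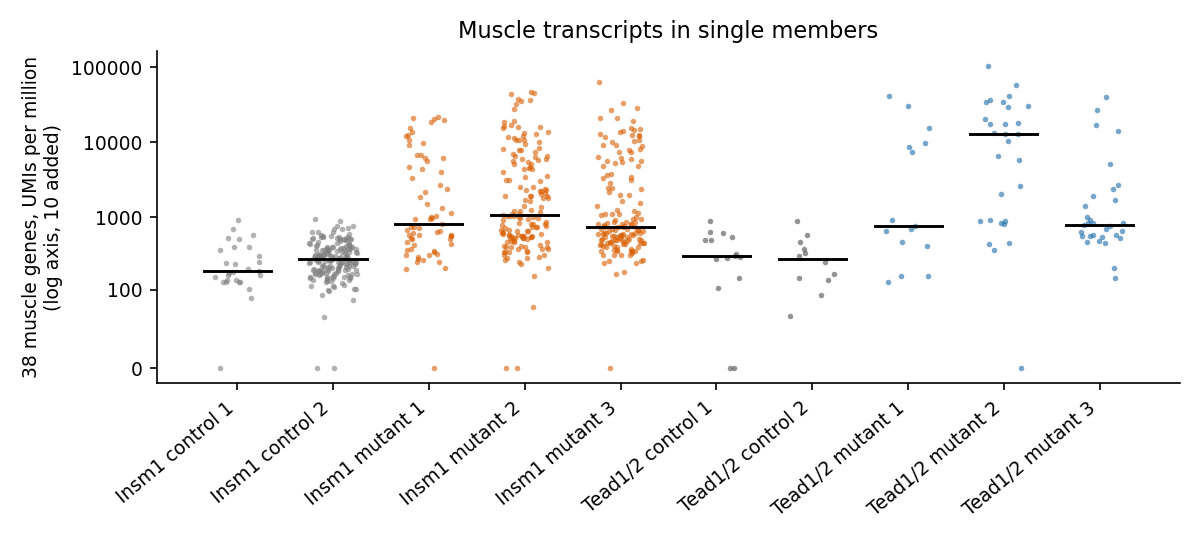
Summed muscle level of each member (CPM, log axis) by library, with 10 added to each value before the log and a bar at each library's median. Control members end at 955 and 893 CPM, and in each of the 6 mutant libraries some members lie below that and others far above it, up to 62597 CPM for Insm1 and 103829 for Tead1/2.

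Some granule lineage genes fell in the members. Of 18 tested progenitor genes 6 fell and 0 rose for each allele (medians -0.61 and -1.07), among them the hedgehog effector Gli2 and the cyclin Ccnd2 for both. Of 15 tested granule neuron genes 5 fell and 2 rose for Insm1 and 6 fell and 1 rose for Tead1/2 (medians -0.50 and -0.51). Slc17a6, a vesicular glutamate transporter, fell by 1.60 (FDR 0.014) and 2.66 (FDR 0.013) on the log2 scale, the same as 1.60 and close to 2.44 in the remaining barcodes. Other falls named by rule were Gm49144 (-2.77 and -2.13), A730004F24Rik (-2.15) and Adamtsl3 (-1.78) for Insm1, and Mfap4, an extracellular matrix protein (-2.29), for Tead1/2.

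Markers of other cell types gave few calls, but some of their levels moved with the groups. The summed level of the 9 meningeal genes was 151 and 321 CPM in the members of the Insm1 controls and 867, 875 and 868 in those of the mutants, and 86.3 and 66.8 CPM against 780, 2139 and 867 for Tead1/2. Neither pair of groups overlapped. Of 8 tested meningeal genes 1 rose for each allele (Igf2, an insulin-like growth factor), with median changes of 0.73 for Insm1 and 7.47 for Tead1/2, or 3.55 for Tead1/2 with the 4 genes that had 0 counts in its controls set to their lower bound. Among those 4 was Col3a1, a fibrillar collagen, at least 29.0-fold higher. Bergmann glia and astrocyte genes had medians of 0.76 and -0.45, with 1 rise for Insm1 (Aldh1l1) and 0 calls for Tead1/2 among 11 tested. The lists of endothelial and mural (0.25 and 1.74), oligodendrocyte (0.04 and 1.07), interneuron (0.03 and 0.63) and microglial genes (-0.25 and -0.31) had 0 calls for either allele. Their summed levels overlapped for endothelial and oligodendrocyte genes, which ranged from 9.25 to 145 and 223 to 956 CPM in the Tead1/2 controls and from 8.89 to 170 and 257 to 2100 CPM in the mutants. Microglial levels separated for Insm1, from 99.0 to 133 CPM in its controls and from 171 to 217 CPM in its mutants. Bergmann glia and astrocyte levels separated for Tead1/2, where controls held 803 and 973 CPM and mutants 552 to 639 CPM. Both lists overlapped for the other allele. The summed level of the 6 cerebellar nuclei genes, which include Slc17a6, was lower in every mutant. Of 3 tested genes only Slc17a6 was called, lower for both alleles. The change was positive in 2 of the 3 for Insm1 and 1 for Tead1/2 (medians 0.42 and -0.37), so no fall of the whole list was shown. Insm1 controls held 76.8 and 93.6 CPM and mutants 26.6 to 48.2, and Tead1/2 controls 67.8 and 89.1 and mutants 14.6 to 21.6. The part of other cells' transcripts in the changes of the members was not tested.

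The effects of both deletions were compared directly. edgeR called 0 of 13109 genes for the difference (0.0%), with 819 at an unadjusted p under 0.05 and 14 called by DESeq2. The smallest p belonged to Pla2g7, a lipase, which measured 24.0 and 38.1 CPM in both Insm1 controls, 55.9, 46.0 and 53.2 in the mutants, 63.4 and 50.7 in the Tead1/2 controls and 21.4, 25.8 and 23.8 in the mutants (difference 1.90, unadjusted p = 7.1e-05, FDR 0.47). In the remaining barcodes it changed by 0.49 and 0.44. Next came Fign (-1.44), Rfx4 (1.5), Igf2 (-6.13, from controls near 0 for Tead1/2) and Arhgef26 (1.72), none of them called.

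Keeping lobules IX and X gave 0 called genes as well (0.0%; 466 at an unadjusted p under 0.05, 10 by DESeq2, and 30 in a fit of the 4 control libraries). The smallest p-values belonged to Eps8, an actin regulator (0.48 higher with all lobules), Lrrtm3 (0.50), Otx2os1 (1.24), Car10 (0.80) and Cntnap2 (0.68). Among the 32 stripe genes 0 were called, and their median difference was -0.01.

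Whole cerebella at P2 gave a readout in other animals. There a change can come from fewer or more Purkinje cells or from less or more RNA per cell, and these cannot be told apart. For Insm1 135 of 19582 genes were called (0.689%), and for Tead1/2 0 of 20247 (0.0%; 4052 at an unadjusted p under 0.05, 960 by DESeq2). The library labelled Tead1/2 mutant 4 stood apart, with Tead2 at 25.7 CPM beside 22.3 to 25.6 in the controls and 17.3 to 19.4 in the other mutants, and with Ttn at 10.2 CPM beside 59.5 to 70.2 in the other mutants. Without it 646 genes were called.

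Of the 5 rule markers and the 20 further Purkinje genes 0 were called at P2 for either allele by edgeR with its low-count filter. The 20 further genes split into 10 with a positive and 10 with a negative change for Tead1/2, with a median of 0.01. In 6 of the 25 genes (Calb1, Car8, Pcp2, Pcp4, Pvalb and Id2) every Tead1/2 mutant lay above every control, and in 0 every mutant lay below. Among all 20247 genes this held for 9.47% and 6.96%. Calb1 stood at 300, 299 and 288 CPM in the controls and at 394, 360, 367 and 329 in the mutants (log2 change 0.29, FDR 0.092). Pcp4 stood at 159, 174 and 183 CPM and at 230, 217, 221 and 204 (0.34, FDR 0.090), and Pcp2 at 33.3, 39.7 and 38.3 and at 47.5, 50.7, 41.5 and 46.3 (0.33, FDR 0.10). Car8 changed by 0.17 (FDR 0.18). Without the library labelled mutant 4, Calb1 (0.34, FDR 0.015) and Pcp4 (0.37, FDR 0.017) were called, and Lhx1 as the only other called gene of the 25, lower. With all libraries kept, edgeR without the low-count filter called Calb1, Pcp2 and Pcp4 higher and Lhx1 lower, and DESeq2 called Calb1, Pcp2, Pcp4 and Id2, all higher.

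For Insm1 at P2 the rise nearest the threshold was Arhgef33, at 54.5, 55.6, 52.1 and 62.1 CPM in the controls and 69.5, 66.9, 86.9 and 75 in the mutants (0.41, FDR 0.10). The groups did not overlap, and DESeq2 called it. Itpr1 changed by 0.01 and -0.10 for Insm1 and Tead1/2, Slc1a6 by -0.10 and 0.13, Skor2 by -0.09 and -0.02 and Shh by 0.04 and 0.00. The genes of the Purkinje lists called for Insm1 at P2 were Atp2b3, Jag1, Ntf3 and Mef2c, which rose, and C1ql1 and En1, which fell. Atp2b3, Jag1, Ntf3 and Mef2c were also called higher in the P7 members of Insm1 mutants. On the mean of the 10 P7 libraries, mutants included, none of them was more abundant in members than in the remaining barcodes. That mean does not give the ratios in controls.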

How the data were processed

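Members and gene lists were chosen with earlier results of these data known. The deposited P7 matrices hold raw UMI counts per barcode, for barcodes of at least 10 UMIs, per the file headers, and the gene tables name GRCm39. The library, and with it genotype, number and dissection, was taken from the deposited cell metadata. The P2 tables hold expected counts from RSEM, as deposited by the authors. The tables' names are swapped against the labels, so columns were matched by name, with 0 unmatched. Expected counts were rounded (7.67% were not whole) and 92 ERCC entries were left out, which left 55573 genes and 28066643 to 64518751 counts per library. The submitters' processing notes name STAR 2.7.9a, RSEM 1.3.3 and Seurat 4.4.0 with no role, and any filters were not given in the sources used here.

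Member UMIs were summed per library and fitted in edgeR 4.0.16 (R 4.3.3; TMM, filterByExpr, quasi-likelihood test) with 4 genotype groups, with a dissection term for the lobule comparison. P-values were adjusted over all genes tested. P2 was fitted per allele. Log2 changes of genes with 0 control counts are no measure of fold. Named genes were those called, at 20 CPM or more on average, with groups that do not overlap: the 8 largest rises and falls among genes at least 2 times higher in members and the 4 largest among the rest, with the 5 smallest p-values where under 3 were called. Genes of the lists could be named too, and some of their members are not reported here.

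The same test on simulated counts recovered 58% of 2-fold and 94% of 4-fold changes for Insm1 (12585 genes) and 30% and 62% for Tead1/2 (12594 genes). Of the simulated calls 10.1% were false for Insm1 and 2.13% for Tead1/2, at an adjusted p under 0.05. Each library is a separate animal, and replicates differed by more than sampling noise (chi-square per degree of freedom 3.40 to 11.2). Replicate numbers did not pair samples at P7 or P2. Sex, read from Xist, was female in both controls and mutant 3 of Tead1/2, and in control 1 and mutants 2 and 3 of Insm1, so it is unbalanced for Tead1/2 at P7. Alternatives were DESeq2 1.42.0, other size factors, no filter, other member rules, a dissection or number block, a sex term and each library left out. The ATAC-seq and CUT&RUN samples were not analysed here.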

Additional observations from a re-analysis of the deposited data

Results flagged for a closer look

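In groups of 4 libraries at P2, the highest or lowest value was set against the spread of the others for the Purkinje genes outside and inside the rule. Of 75 such groups 3 held a library far from the rest (4%), where chance gives about 1 in 20. Lhx1 stood at 19.7 CPM in Insm1 mutant 1, beside 35.5, 34.9 and 34.2 in the other Insm1 mutants. Doc2b, a calcium sensor of transmitter release, stood at 9.86 CPM in Insm1 control 3, beside 15.2, 15.1 and 16.1 in the other controls. Rgs8, a regulator of G protein signalling in Purkinje cells, stood at 35.5 CPM in Insm1 mutant 3, beside 34.6, 34.5 and 34.5, a gap that is small in size.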

How the results depend on the processing

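The number of genes called in members moved with who the members were and how deep they were. In the order Insm1 (1014 as reported) and Tead1/2 (754), edgeR called 490 and 414 genes with UMIs of 4 or more markers, 416 and 270 without the deepest 25% of members, 610 and 418 among members with a Skor2 UMI, 80 and 18 in the members below the median UMIs of their library, and 264 and 192 with each member thinned to 5000 UMIs. Calls were 1728 and 1438 with no low-count filter (more genes were tested), 1976 and 363 with each allele fitted alone, and 321 and 360 with scaling on genes 4 times higher in members. Leaving out any 1 library gave 289 (without Insm1 control 2) to 1219 and 205 (without Tead1/2 control 2) to 798; without Insm1 control 1 there were 517, without Insm1 mutants 2 or 3 541 and 523, and without Tead1/2 control 1 456. DESeq2 called 1380 and 1060, median-ratio size factors gave 1020 and 753, and a sex term 881 and 607. For the difference between alleles (0) the counts were 14 with DESeq2, 163 without the filter and 1 with that scaling; for the dissection (0) they were 10, 129 and, in controls alone, 30; leaving out a library gave 0 for both. The Skor2, below-median, thinned and scaling settings and the block on shares were chosen after seeing the data. Where the construction of a setting does not show it, the cause was not tested.

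Same-numbered libraries did not deviate together (r of -0.338 to 0.142 at P7, -0.134 to 0.284 for Insm1 and -0.072 to -0.010 for Tead1/2 at P2). With the dissection as a replicate block 902 and 662 genes were called at P7, and the share differed by 0.599 and 0.105 points. With the number as a block 64 and 236 genes were called at P2, in place of 135 and 0. There DESeq2 called 312 and 960, the fit without the filter 212 and 1287, and leaving out a library gave 64 to 132 and 0 to 646. The share difference for Insm1 reversed to -0.0232 points without Insm1 control 1 and ranged to 1.78 points; for Tead1/2 it ranged from 0.0779 to 0.182 points. The ratio of Purkinje genes, 3.41 as reported, was 5.25 in members below the median UMIs.

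Over 55 results for single genes and 1221 alternative values, 1006 kept direction and call, 166 lost the call, 24 gained it and 25 changed sign. Among the gains for Tead1/2 were Itpr1 in 2 of 23 settings and Arhgef33 and Slc1a6 in 1 of 23 each, all higher. For Insm1, Slc1a6 turned to -0.022 with DESeq2, -0.18 with 4 markers, -0.0090 with Skor2, -0.54 without control 2, -0.16 without mutant 2 (up to 0.83 without control 1) and -0.31 with the scaling above. That scaling gave -0.0015 for Itpr1 and -0.23 for Pcp4. It also moved the median of all genes from 0.02 to -0.26 for Insm1, a shift of the whole scale and not of these genes alone. Pcp4 was also -0.024 with a sex term, -0.0043 without mutant 2 and -0.018 without mutant 3 (up to 0.40 without mutant 1). For Tead1/2, Pcp4 turned to 0.84 without the deepest 25%, 1.31 below the median, 0.70 thinned and 0.15 with a sex term. Shh turned to 0.73 without the deepest 25%, 0.55 without control 2 and 0.02 without mutant 2 (down to -0.96 without control 1). Rora turned to -0.020 without control 2, stood at 0.98 without control 1 and reached 1.51 as its highest value over all settings. The difference turned to -0.32 for Pla2g7 (4 markers) and -0.52 for Rfx4 (below the median). For the dissection, Eps8 turned to -0.32, Lrrtm3 to -0.37 and Car10 to -0.16 below the median, and Car10 to -0.029 without the deepest 25%.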
